A study of Oryza sativa with 60 samples.

Results

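Rice starch is built and trimmed at its branch points by a small set of enzymes, and 7 genes that encode them were followed here: the starch branching enzymes BEI, BEIIa and BEIIb, the isoamylases ISA1, ISA2 and ISA3, and pullulanase. They were chosen by gene identifier, not by their measured values, and were 7 of the 38978 genes in the expression data. A further choice by position gave 21 of the 9126 pseudouridine (Ψ) sites, those lying within the span of 1 of the 7 genes on its own strand. All plants were the Nipponbare cultivar of rice. The 12 groups were endosperm (the starch-storing tissue of the seed), embryo and flag leaf at 10 days after anthesis (10DAA), panicle, straw and flag leaf at the heading stage, seedlings at 2 weeks (2W) and at 8 days (8DAY), and radicle (the embryonic root) and plumule (the embryonic shoot), each in light and in dark and collected shortly after germination. The series comprised 60 samples, 36 treated with bisulfite (3 per group) and 24 untreated inputs (2 per group). Poly(A)-selected RNA was profiled by bisulfite-induced deletion sequencing (BID-seq), in which a Ψ base carrying a bisulfite adduct is skipped during reverse transcription. How often reads are gapped at a base therefore reports how much of the transcript is modified there.

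Starch is a mixture of linear amylose and branched amylopectin. Branching enzymes cut a glucan chain and rejoin the cut end as a side branch. Isoamylases and pullulanase, the debranching enzymes, hydrolyse such branch points. In cereal endosperm ISA1 is known for removing misplaced branches during amylopectin synthesis, and rice that lacks it accumulates soluble phytoglycogen (the sugary trait). ISA2 is known as a partner subunit of ISA1 with little catalytic activity of its own, and ISA3 is known from Arabidopsis leaves for starch breakdown. BEIIb is the branching form whose loss gives rice the amylose-extender trait. BEIIa is known as the form of the same class used more widely across the plant.

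Of the 21 Ψ sites, 9 lay in BEI, 5 in BEIIb, 2 in ISA1, 2 in ISA3 and 3 in pullulanase, whereas BEIIa and ISA2 held 0. The sequences that follow are the 7-base windows on the transcript strand (genome build IRGSP-1.0), with the Ψ base in capitals as T. The first 4 share the letters gataaa around that base, and the next was the one that passed the authors' filter in the most tissues. The last 4 had the highest fractions in endosperm.
BEI, chromosome 6, position 30903083, minus strand: ggaTaaa
BEI, chromosome 6, position 30902332, minus strand: ggaTaaa
BEI, chromosome 6, position 30899967, minus strand: tgaTaaa
ISA1, chromosome 8, position 25898066, minus strand: cgaTaaa
BEI, chromosome 6, position 30898988, minus strand: agcTctg
ISA1, chromosome 8, position 25896525, minus strand: ttaTagc
BEIIb, chromosome 2, position 19366176, minus strand: ttgTtgt
pullulanase, chromosome 4, position 4410928, plus strand: ggtTcaa
pullulanase, chromosome 4, position 4410568, plus strand: agtTcaa

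Expression was given as TPM, an abundance scaled by gene length and library size, in 24 libraries, 2 per group. The libraries held between 2109737 and 9006629 read equivalents, the reads that the steps in the TPM values stand for. Replicate 1 of radicle in light stood apart before any gene of interest was considered: over all genes its log2(TPM + 1) correlated with the endosperm libraries at r = 0.896 and 0.897, whereas replicate 2 did so at 0.739 with each of them. Replicate 1 was also as close to radicle, at 0.914 with replicate 2 and 0.909 and 0.913 with the radicle dark libraries. Replicate 2 reached 0.966 and 0.967 with radicle dark. All 7 genes are therefore given with this library apart, and each test with and without it. The chi-square per gene between replicates, near 1 when counting noise alone is present, was 8.01 in radicle light. It was 1.02 in endosperm (chi-square p = 0.0703 over 9394 genes), 1.01 in plumule dark (p = 0.316 over 9276 genes) and 0.996 in plumule light (p = 0.612 over 8697 genes). These 3 pairs were not told apart from sampling noise and count as 1 sample each, so no SD is given for them. Embryo lay about as near to 1, at 1.02 (chi-square p = 0.0438 over 10862 genes), but was kept as 2 libraries. The labels name no separate plants for the other pairs. The p-values then measure the spread between libraries, which may be technical.

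BEI (Os06g0726400; chromosome 6, 30897378 to 30905803, minus strand) was the most abundant branching gene in endosperm. It stood at 1963 and 2010 TPM in endosperm, against 199.6 and 200.03 TPM in embryo. Outside the seed, 19 libraries ranged from 19.2 TPM in radicle dark to 52.8 TPM in flag leaf 10DAA, with a median of 35.3 TPM. BEI was thus present in every tissue at a fairly even level and 9.94-fold higher in endosperm than in embryo, the next group in order. Among the 11 pairs of neighbours in its order of groups, 2 overlapped (plumule light with seedling 8DAY, and seedling 8DAY with panicle).

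BEIIb (Os02g0528200; chromosome 2, 19355790 to 19367127, minus strand) had 1513 and 1496 TPM in endosperm, against 156 and 153 TPM in embryo. Panicle followed with 64.1 and 62.8 TPM. The other groups outside the seed lay lower, down to 4.66 and 3.88 TPM in flag leaf heading. Unlike BEI, BEIIb thus varied outside the seed as well, by 16.5-fold between the extreme libraries, and 4 of its 11 pairs of neighbours overlapped.

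BEIIa (Os04g0409200; chromosome 4, 20240211 to 20243460, minus strand) followed another order. It was highest in flag leaf 10DAA with 136 TPM in both libraries. Embryo came next with 72.0 and 73.0 TPM, and endosperm had 66.3 and 54.6 TPM. The lowest group was radicle dark, with 7.61 and 7.13 TPM. BEIIa was therefore the only 1 of the 3 branching genes whose highest group was a leaf. Its listed gene length, 1170 bases, is short beside those of BEI (4871 bases) and BEIIb (2916 bases), and its level relative to theirs depends on that length.

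ISA1 (Os08g0520900; chromosome 8, 25893657 to 25900576, minus strand) stood at 743 and 719 TPM in endosperm, against 51.4 and 42.6 TPM in embryo. Plumule light had 34.5 and 38.3 TPM and panicle 25.6 and 22.5 TPM. In flag leaf 10DAA it had 0.973 and 0.577 TPM, which rested on 11 and 6 read equivalents. Its groups thus spanned 943-fold, the widest range of the 7 genes.

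ISA2 (Os05g0393700; chromosome 5, 19155053 to 19157429, minus strand) was highest in endosperm at 110 TPM in both libraries, against 36.3 and 40.5 TPM in embryo. Panicle had 18.5 and 19.3 TPM and straw 18.3 and 15.6 TPM. The lowest value was 3.31 TPM, in radicle light replicate 2. Its order resembled that of ISA1 with a narrower range, 33.3-fold over the groups.

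Pullulanase (Os04g0164900; chromosome 4, 4408357 to 4418889, plus strand) had 1323 and 1303 TPM in endosperm, against 91.5 and 89.7 TPM in embryo. Over the 19 libraries outside the seed it ranged from 1.32 to 9.77 TPM with a median of 3.39 TPM. It thus showed the steepest drop from endosperm to the middle of the other groups, 296-fold against the median over all groups.

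ISA3 (Os09g0469400; chromosome 9, 17851431 to 17868668, minus strand) was the only debranching gene that was not highest in endosperm. It had 9.41 and 8.45 TPM in endosperm, against 52.6 and 54.2 TPM in embryo. Panicle had 24.2 and 23.7 TPM and flag leaf 10DAA 19.9 and 20.7 TPM. The lowest values, 1.73 and 2.62 TPM, were in radicle dark. A gene on the same strand, Os09g0469600, overlaps its span and ranged from 0.684 to 630 TPM, and how the authors assigned shared reads is not given in the sources used here. Genes that overlap BEI and BEIIb on the other strand reached at most 0.644 and 0.0951 TPM.

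**Figure D1:**
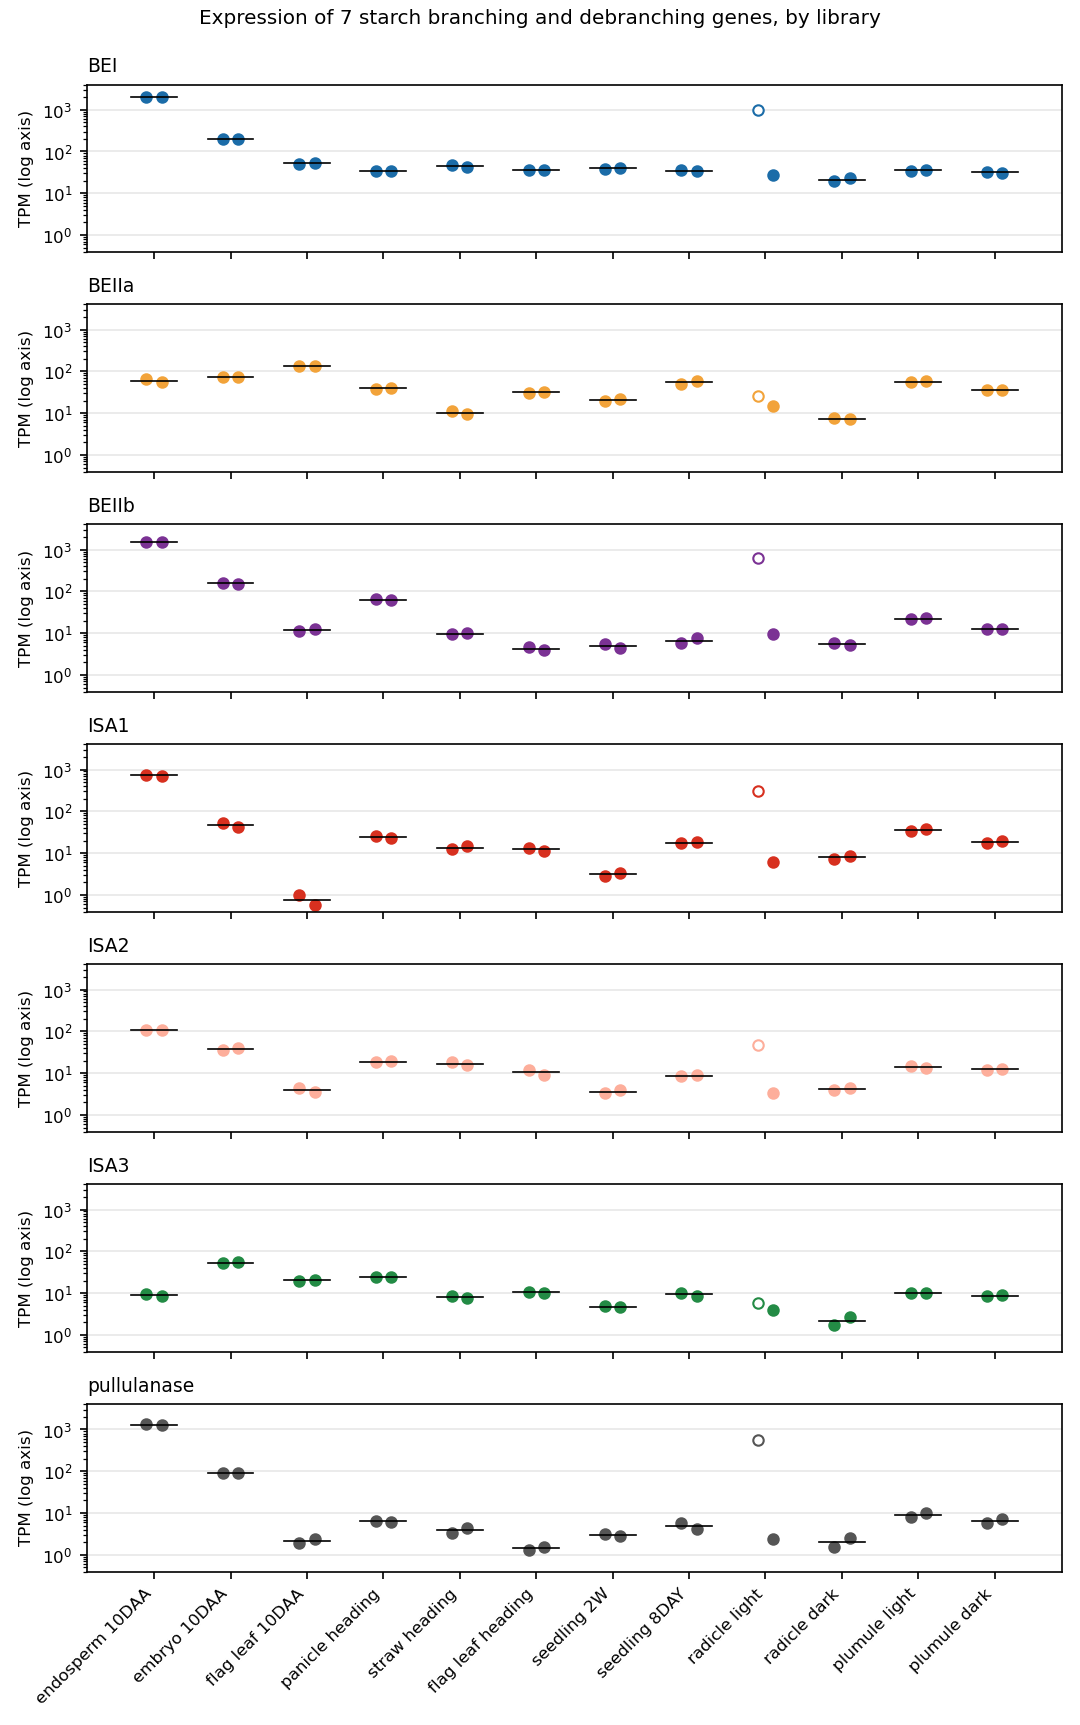
TPM (log axis) of each gene in every library, 2 points per group, with the group mean as a line where it was taken. The open point in radicle light is replicate 1, which lies far above replicate 2 for BEI, BEIIb, ISA1, ISA2 and pullulanase, while BEIIa peaks in flag leaf 10DAA and ISA3 in embryo.

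The radicle light library that stood apart carried the 7 genes at 41.2% to 63.3% of the endosperm level. It had 974 TPM of BEI, 635 TPM of BEIIb and 554 TPM of pullulanase, against 27.8, 9.64 and 2.43 TPM in replicate 2. As a share of the endosperm mean it stood at 49.1% for BEI, 42.2% for BEIIb, 41.2% for ISA1, 42.1% for ISA2 and 42.2% for pullulanase. BEIIa stood at 43.9% and ISA3, the farthest from the others, at 63.3%. For BEIIa, which is not at its highest in endosperm, the 2 radicle light libraries had 26.5 and 15.1 TPM, and for ISA3 they had 5.65 and 3.84 TPM. The part of endosperm RNA in this library's values was not tested.

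Within the seed, endosperm was compared with embryo by limma on log2(TPM + 1) over 29987 genes, with a Benjamini-Hochberg adjusted p-value threshold of 0.05. Of the 7 genes, 4 were higher in endosperm and 1 lower with all libraries in the fit, and 54.0% of all genes passed in either direction (26.4% higher, 27.6% lower). In the fit without radicle light replicate 1, 5 were higher and 2 lower, with 59.9% of 29942 genes passing in either direction. The median log2 change of the 7 genes was 3.27, and that of all genes was 0. In bulk tissue, fewer cells of a type and less RNA per cell cannot be told apart.

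The rise in endosperm was of similar size for BEI and BEIIb. The log2 change of BEI was 3.31 ± 0.93 (SE, limma adjusted p = 0.00674) and that of BEIIb 3.27 ± 1.08 (limma adjusted p = 0.0178). ISA1 changed by 3.94 ± 0.99 (limma adjusted p = 0.00313) and pullulanase by 3.84 ± 1.35 (limma adjusted p = 0.0244). BEIIb and pullulanase lost their calls when any 1 of the 4 seed libraries was left out (limma adjusted p between 0.0625 and 0.0823), although the log2 changes stayed at 3.26 to 3.29 for BEIIb and 3.83 to 3.86 for pullulanase. Both passed without radicle light replicate 1 (limma adjusted p = 1.52e-12 for BEIIb and 2.41e-11 for pullulanase). With the endosperm and plumule pairs merged, BEI missed the threshold too (limma adjusted p = 0.0547), whereas in that fit without radicle light replicate 1 BEI, BEIIb, ISA1, ISA2, ISA3 and pullulanase all passed. ISA3 went the other way, at -2.45 ± 0.15 (limma adjusted p = 1.95e-09).

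ISA2 and BEIIa did not pass with all libraries in the fit and did without radicle light replicate 1. The log2 change of ISA2 was 1.50 ± 0.64 (limma adjusted p = 0.0615), and its error was 0.13 without that library (limma adjusted p = 5.55e-08). ISA2 also passed when the 4 seed libraries were fitted alone (limma adjusted p = 4.31e-05) and, with all libraries, when voom weighted the read equivalents (limma adjusted p = 0.000504). BEIIa had -0.27 ± 0.17 (limma adjusted p = 0.219), with an error of 0.10 when the library was left out (limma adjusted p = 0.0285), and it did not pass when the pairs within sampling noise were merged as well (limma adjusted p = 0.0811). The standard errors of BEI, BEIIb, ISA1, ISA2 and pullulanase were 0.64 to 1.35 with the library and 0.07 to 0.17 without it, since the fit shares 1 spread over all groups. The changes themselves were the same in both fits of this comparison. Embryo held 10.1% of the endosperm level of BEI, 10.3% of that of BEIIb, 6.43% of that of ISA1 and 6.90% of that of pullulanase, but 34.9% of that of ISA2. The part of endosperm RNA in the embryo values was not tested.

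Against flag leaf at the same age, all 7 genes passed, 5 higher in endosperm and 2 lower, where 67.8% of all genes passed (26.2% higher, 41.6% lower). The calls were the same in the fit without radicle light replicate 1, where 71.5% passed. ISA1 and pullulanase had the largest changes, 8.70 ± 0.99 (SE, limma adjusted p = 1.03e-06) for ISA1 and 8.70 ± 1.35 (limma adjusted p = 2.88e-05) for pullulanase. BEIIb changed by 6.87 ± 1.08, BEI by 5.24 ± 0.93 and ISA2 by 4.49 ± 0.64. BEIIa and ISA3 fell, by 1.16 and 1.10 on the log2 scale. Thus both genes that were not highest in endosperm were higher in the leaf. This scale adds 1 to the TPM and understates the change of ISA1, which lay under 1 TPM in flag leaf 10DAA.

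Against panicle at heading, 6 genes were higher in endosperm and ISA3 was lower, where 66.3% of all genes passed (13.8% higher, 52.5% lower), and the calls were the same when radicle light replicate 1 was left out, where 71.3% passed. The changes ranged from 0.60 ± 0.17 for BEIIa (SE, limma adjusted p = 0.00608) to 7.48 ± 1.35 for pullulanase (limma adjusted p = 0.000145). The call of BEIIa was lost without endosperm replicate 1, when its change was 0.46 (limma adjusted p = 0.0716). ISA3 changed by -1.33 ± 0.15 (limma adjusted p = 1.26e-06). The median over the 7 genes was 4.55 and that over all genes -0.56. TPM is relative to the library total, and the part of abundant endosperm transcripts in the median over all genes was not tested. The 3 endosperm comparisons share the endosperm libraries and are not independent of each other.

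**Figure D2:**
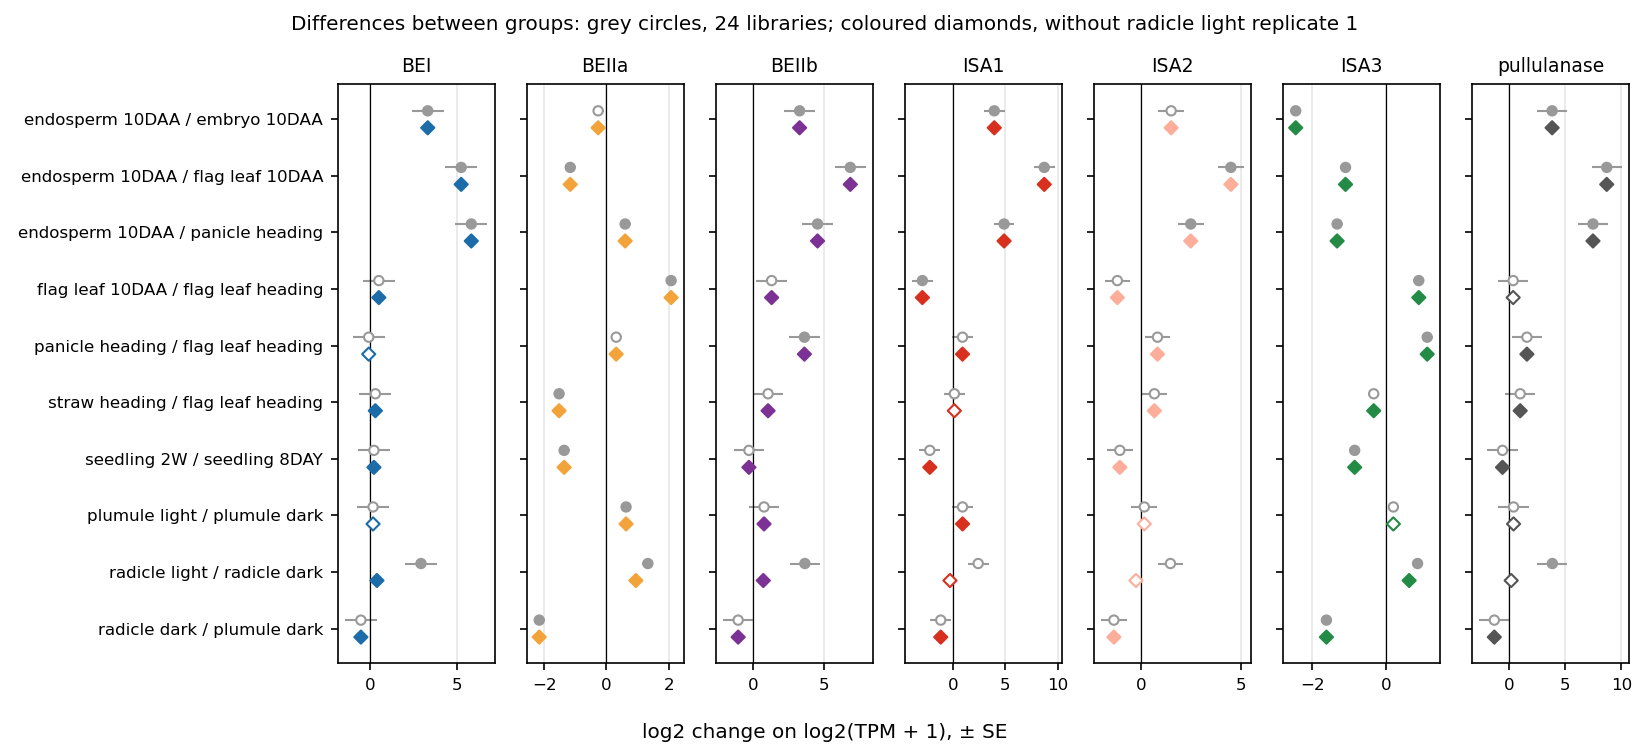
Log2 change ± SE of each gene (x axis, scaled per panel) in 10 comparisons, first-named group over the second. Grey circles are from all 24 libraries and coloured diamonds from the fit without radicle light replicate 1, filled where the limma adjusted p-value lay under 0.05; the changes coincide except in radicle light / radicle dark, and the grey bars are wider for BEI, BEIIb, ISA1, ISA2 and pullulanase.

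In the flag leaf, the age comparison separated BEIIa and ISA3 from ISA1. Between 10DAA and heading, 2 of the 7 genes were higher and 1 lower, where 30.6% of all genes passed (13.3% higher, 17.3% lower), and without radicle light replicate 1 there were 4 higher and 2 lower, where 38.4% passed. BEIIa had 136 TPM in both libraries of flag leaf 10DAA, against 30.0 and 32.7 TPM in flag leaf heading, so that its log2 change was 2.08 ± 0.17 (SE, limma adjusted p = 1.89e-07). ISA3 had 19.9 and 20.7 TPM in flag leaf 10DAA, against 10.8 and 10.3 TPM in flag leaf heading (0.89 ± 0.15, limma adjusted p = 0.000293). ISA1 had 0.973 and 0.577 TPM in flag leaf 10DAA, against 13.3 and 11.4 TPM in flag leaf heading (-2.91 ± 0.99, limma adjusted p = 0.0353, but 0.350 when voom weighted the read equivalents). The call of ISA1 was lost without any 1 of the 4 flag leaf libraries (limma adjusted p between 0.0988 and 0.142) and held without radicle light replicate 1 (limma adjusted p = 1.42e-10). The libraries did not overlap for any of these genes, but the share of all genes without overlap was not taken.

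ISA2 lay on the same side as ISA1 in the flag leaf. It had 4.41 and 3.50 TPM in flag leaf 10DAA, against 11.8 and 9.06 TPM in flag leaf heading. Its log2 change of -1.20 ± 0.64 did not pass (limma adjusted p = 0.188) and did without radicle light replicate 1 (± 0.13, limma adjusted p = 1.98e-06). The same held for BEIIb at 1.29 (limma adjusted p = 0.444, and 2.84e-07 without the library) and for BEI at 0.49 (limma adjusted p = 0.804, and 7.46e-05 without it). Pullulanase, at 1.90 and 2.42 TPM in flag leaf 10DAA and 1.32 and 1.55 TPM in flag leaf heading, passed in neither fit.

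At heading, BEIIb set the panicle apart. It had 64.1 and 62.8 TPM in panicle, against 4.66 and 3.88 TPM in flag leaf, which gave a difference of 3.62 ± 1.08 in log2 (SE, limma adjusted p = 0.00879, but 0.106 with voom). ISA3 had 24.2 and 23.7 TPM in panicle, against 10.8 and 10.3 TPM in flag leaf (1.11 ± 0.15, limma adjusted p = 8.98e-06). These were the 2 of 7 genes that passed, where 60.1% of all genes did (37.1% higher, 23.0% lower). With radicle light replicate 1 left out, 6 were higher, where 66.2% of all genes passed in either direction. BEI was the exception (-0.10 ± 0.07, limma adjusted p = 0.275).

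Between straw and flag leaf at heading the main difference was in BEIIa. It had 11.2 and 9.42 TPM in straw, against 30.0 and 32.7 TPM in flag leaf, or -1.52 ± 0.17 in log2 (SE, limma adjusted p = 1.72e-06). It was the 1 gene of 7 that passed, where 54.5% of all genes did (28.5% higher, 26.0% lower). When radicle light replicate 1 was left out, BEI, BEIIb, ISA2 and pullulanase were higher in straw and BEIIa and ISA3 lower, where 60.5% passed. BEIIb then changed by 1.04 ± 0.12 (limma adjusted p = 1.22e-06). ISA1 had 12.7 and 14.5 TPM in straw, against 13.3 and 11.4 TPM in flag leaf, and these ranges overlapped.

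In seedlings, BEIIa and ISA3 were lower at 2W than at 8DAY, 2 of 7 genes where 51.4% of all genes passed (27.5% higher, 23.9% lower). BEIIa had 19.8 and 21.6 TPM in seedling 2W, against 51.1 and 58.3 TPM in seedling 8DAY (-1.36 ± 0.17, SE, limma adjusted p = 7.80e-06). ISA3 had 4.88 and 4.66 TPM in seedling 2W, against 10.3 and 8.65 TPM in seedling 8DAY (-0.85 ± 0.15, limma adjusted p = 0.000195). Leaving out radicle light replicate 1, all 7 passed, 6 of them lower, where 58.2% of genes passed in either direction. The largest of these was ISA1, with 2.90 and 3.28 TPM in seedling 2W, against 17.1 and 18.7 TPM in seedling 8DAY (-2.21 ± 0.14, limma adjusted p = 1.43e-09). BEI alone was then higher at 2W, at 0.20 ± 0.07 (limma adjusted p = 0.0283), while BEIIb at -0.32 ± 0.12 lost its call when the pairs within sampling noise were merged as well (limma adjusted p = 0.0584).

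Light was compared with dark in each young organ. In plumule 1 of 7 genes was higher in light and 0 lower, where 27.4% of all genes passed (20.1% higher, 7.36% lower). This was BEIIa, with 55.6 and 58.3 TPM in plumule light, against 36.2 and 36.5 TPM in plumule dark (log2 change 0.63 ± 0.17, SE, limma adjusted p = 0.0126). Each plumule pair counts as 1 sample, and with the pairs merged BEIIa, at 0.63, lost its call. For fits with merged pairs the share of all genes was not taken. Without radicle light replicate 1, BEIIa, BEIIb and ISA1 passed, where 36.6% of genes did, and these 3 also passed with the pairs merged in that fit. ISA1 then had the largest change, 0.91 ± 0.14 (limma adjusted p = 7.64e-05), from values of 34.5 and 38.3 TPM in plumule light and 17.8 and 20.0 TPM in plumule dark. BEIIb had 21.8 and 23.1 TPM in plumule light and 12.9 TPM in both libraries of plumule dark (0.75 ± 0.12, limma adjusted p = 0.000116).

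In radicle, the size of most changes depended on replicate 1 in light. Without that library radicle light rests on replicate 2 alone, which had the fewest read equivalents of all libraries (2109737). With replicate 1, 5 of 7 genes passed as higher in light, where 25.2% of all genes passed (13.9% higher, 11.3% lower). Without it BEI, BEIIa, BEIIb and ISA3 passed, where 28.8% did, and when the 4 radicle libraries were fitted alone 0 of 7 passed. For that fit of 4 libraries the share of all genes was not taken. The log2 change of pullulanase was 3.86 ± 1.35 (SE, limma adjusted p = 0.0472), and 0.20 ± 0.21 without the library (limma adjusted p = 0.556). BEI changed by 2.92 ± 0.93 (limma adjusted p = 0.0314) and by 0.38 ± 0.09 without it (limma adjusted p = 0.00615). BEIIa was less affected, at 1.33 ± 0.17 and without the library 0.95 ± 0.12 (limma adjusted p = 3.55e-05), from 15.1 TPM in radicle light replicate 2 against 7.61 and 7.13 TPM in radicle dark. ISA1 and ISA2 turned to -0.28 ± 0.17 and -0.27 ± 0.16 without the library and passed in neither fit.

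The difference of the light effects between plumule and radicle was tested as an interaction. It passed for 0 of the 7 genes, where 15.1% of all genes passed by limma (10.5% positive, 4.66% negative). Unadjusted limma p-values lay under 0.05 for 2 of the 7, a share that was not taken over all genes. Without radicle light replicate 1 it passed for ISA1 only, at 1.20 ± 0.21 (SE, limma adjusted p = 0.00094), where 23.1% of genes passed, and ISA1 kept this call with the plumule and endosperm pairs merged (limma adjusted p = 0.0162). That value rests on a single radicle light library with 6.27 TPM, against 7.11 and 8.67 TPM in radicle dark. Without radicle light replicate 2 instead, the values of all 7 genes were negative, that for ISA1 being -4.18. Without radicle dark replicate 2 the value for ISA3 was -0.86. Each of these fits also leaves a single library in a group.

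Between the organs in the dark, radicle lay below plumule. BEIIa had 7.61 and 7.13 TPM in radicle dark, against 36.2 and 36.5 TPM in plumule dark (-2.16 ± 0.17, SE, limma adjusted p = 2.78e-08). ISA3 had 1.73 and 2.62 TPM in radicle dark, against 8.44 and 8.91 TPM in plumule dark (-1.62 ± 0.15, limma adjusted p = 1.57e-07). These were the 2 of 7 genes that passed, where 59.3% of all genes did (24.2% higher, 35.1% lower). Without radicle light replicate 1 all 7 were lower in radicle, by 0.55 for BEI to 2.16 for BEIIa on the log2 scale. In that fit 65.0% of all genes passed in either direction, and the share lower alone was not taken.

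Since the enzymes of a class share a reaction, the share of each gene in the summed TPM of its class was taken per library. In endosperm BEI made up 55.9% of branching TPM, BEIIb 42.4% and BEIIa 1.70%. In flag leaf 10DAA BEIIa made up 68.1% ± 0.96 (SD, n = 2 libraries), BEI 25.9% ± 0.46 and BEIIb 5.95% ± 0.50. Panicle was the group in which BEIIb had its largest share, 46.3% ± 0.61. Straw was the group in which BEI did, at 69.0% in both libraries.

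The ratio of BEIIb to BEIIa, the close pair of the same class, made the shift plain. It was 22.8 and 27.4 in endosperm, 2.17 and 2.10 in embryo, 1.68 and 1.55 in panicle and 0.0813 and 0.0935 in flag leaf 10DAA. In straw the libraries fell on both sides of 1, at 0.848 and 1.07. Radicle light replicate 1, at 23.9, lay between the endosperm libraries, and replicate 2 was at 0.636. How such a ratio differs between groups does not depend on the listed gene lengths, whereas shares do. From read equivalents without division by length, BEIIa made up 35.7% and BEI 56.5% in flag leaf 10DAA, so that BEI was then the first branching gene there.

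Among the debranching genes, pullulanase made up 60.7% of class TPM in endosperm, ISA1 33.8%, ISA2 5.09% and ISA3 0.413%. In embryo pullulanase had 39.5% ± 0.04 (SD, n = 2 libraries), ISA3 23.3% ± 0.84 and ISA1 20.5% ± 2.43. From read equivalents the order in embryo turned, with 38.5% for ISA3 and 28.5% for pullulanase. In flag leaf 10DAA ISA3 had 74.7% ± 2.07 and ISA1 2.85% ± 1.03. By TPM ISA1 was the first gene of the class in plumule light (52.5%), radicle dark (48.5%), seedling 8DAY (43.7%) and plumule dark (40.7%). It was also first in radicle light replicate 2 (39.6%) and flag leaf heading (35.5%). From read equivalents ISA3 came first in those last places, with 38.2% and 45.2%. In panicle the libraries differed on whether ISA1 or ISA3 came first by TPM.

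Summed branching TPM exceeded summed debranching TPM in every library. The ratio was 7.28 and 7.39 in flag leaf 10DAA and 4.51 and 4.60 in seedling 2W. It was 1.62 and 1.66 in endosperm, against 1.85 and 1.88 in embryo, and lowest in straw with 1.56 and 1.49. Flag leaf heading, at 1.92 and 2.27, lay well below flag leaf 10DAA. These ratios depend on the listed gene lengths, as the shares do, and were not taken from read equivalents. Without division by length the order of the groups, including endosperm and embryo, may differ.

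**Figure D3:**
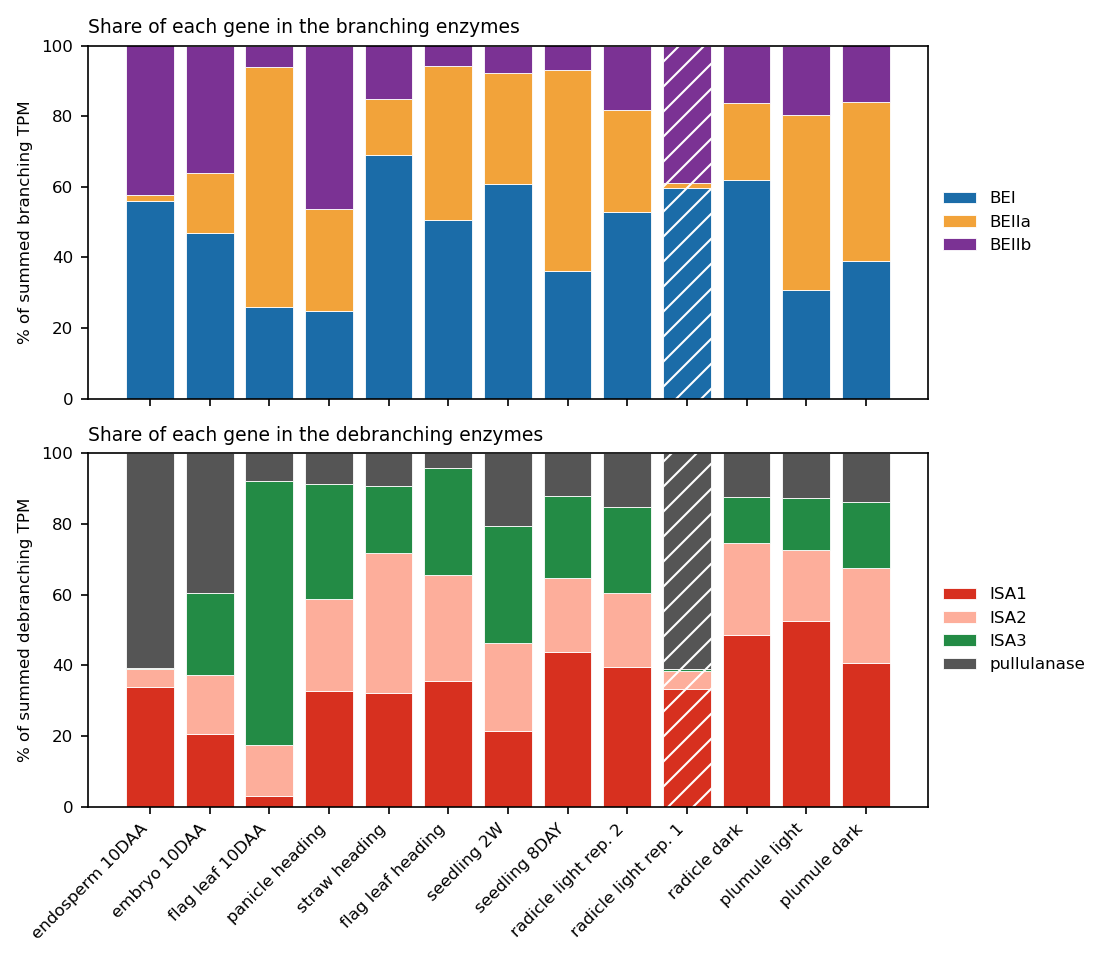
Share of each gene (% of summed TPM) among the branching genes (top) and the debranching genes (bottom), mean over the libraries of a group, with the radicle light libraries drawn apart (replicate 1 hatched). BEIIa and ISA3 take most of their class in flag leaf 10DAA, at 68.1% and 74.7%, and little in endosperm.

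As a description of how alike the patterns were, Pearson's r of log2(TPM + 1) was taken over the 12 group means, with radicle light given by replicate 2. BEI and pullulanase had r = 0.956, BEIIb and pullulanase 0.953, and ISA1 and ISA2 0.925. Without endosperm, over 11 groups, these were 0.828, 0.866 and 0.846. BEIIa and ISA3 had 0.736, and 0.764 without endosperm, whereas BEIIa and ISA1 had 0.207 and 0.06. Leaving out endosperm thus changed r unevenly among the genes that peak there. BEI and ISA1 went from 0.787 to 0.299, whereas the pairs named first stayed at 0.828 or more.

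Among 21863 genes whose highest group mean was at least 10 TPM, the gene most like BEI was Os02g0548100 (r = 0.984), and the gene most like pullulanase was Os05g0415400 (r = 0.988). For BEIIb it was Os11g0151800 (r = 0.969), for ISA1 Os01g0969000 (r = 0.953), for ISA2 Os06g0283400 (r = 0.948) and for ISA3 Os03g0412900 (r = 0.940). The closest gene to BEIIa, Os08g0238700, reached r = 0.872, the lowest of these 7 first matches. These genes are given by identifier because they were not annotated in the sources used here.

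The Ψ sites passed mostly in endosperm. Each fraction is a single value pooled by the authors over the replicates of a tissue, with no replicate error, and the depth behind it is unknown. Of the 21 sites, 19 were flagged as passed in 1 or more of the 11 tissues that carry a filter flag (plumule dark has none). In endosperm 18 of these 19 passed, 17 of them there only, beside 12.7% of all 8851 sites that passed anywhere and 4.39% that passed in endosperm only. The remaining 1, at 30901815 in BEI, stood at 2.02% in endosperm without a pass, against 3.91% in embryo, where it passed. Expression of the host genes was also highest in endosperm, and its part in where sites passed was not tested. Genes at 500 TPM or more in endosperm numbered 215, of which 63.7% held a site that passed there, with a median of 1 site and a maximum of 10. BEI was 1 of 5 genes that held 8 such sites, and 1 gene of the 215 held more. BEIIb held 5, pullulanase 3 and ISA1 2.

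BEI had many sites with low fractions. In endosperm its 9 sites ranged from 1.99% to 40.3% with a median of 7.13%. The site at 30898988 (agcTctg) was the most widespread. It passed in endosperm at 19.0%, in embryo at 19.0%, in panicle at 22.8% and in straw at 21.7%, and over all 12 tissues it lay between 9.25% and 22.8%. The site at 30900802, with 40.3% in endosperm, had larger values without a pass, 64.1% in embryo, 87.7% in flag leaf 10DAA and 76.5% in flag leaf heading, and 0 in 6 other tissues.

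The highest fractions lay in the other endosperm genes. The site at 25896525 in ISA1 (ttaTagc) stood at 93.2% in endosperm, where it passed, against 0 in embryo. It had larger values in seedling 2W (100%, without a pass) and plumule dark (99.3%, where no flag is given), and 0 in plumule light, radicle light and panicle. The site at 19366176 in BEIIb (ttgTtgt) stood at 87.9% in endosperm, against 87.6% in embryo, where it carried no pass, and 94.2% in panicle. In pullulanase the site at 4410928 (ggtTcaa) stood at 69.8% in endosperm, against 57.1% in embryo, and that at 4410568 (agtTcaa) at 56.4% in endosperm, against 0 in embryo. The third pullulanase site, at 4417363, stood at 38.1% in endosperm, against 0 in embryo. These sites had values in only 4 to 7 of the 12 tissues, and the reads behind a 0 are unknown.

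In endosperm 9 of the 19 passed sites were under 10%, and 4 were at 50% or more. Since 17 of the 19 passed in endosperm only, the set was in effect chosen there. Among the 18 that passed there the median was 17.7%, beside 21.7% over all 1128 sites that passed in endosperm. The sites within ISA3, at 17852510 and 17852385, were at 0 in all 12 tissues and passed in none. The site at 17852510 also lies within Os09g0469600 on the same strand, so its host gene is uncertain.

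**Figure D4:**
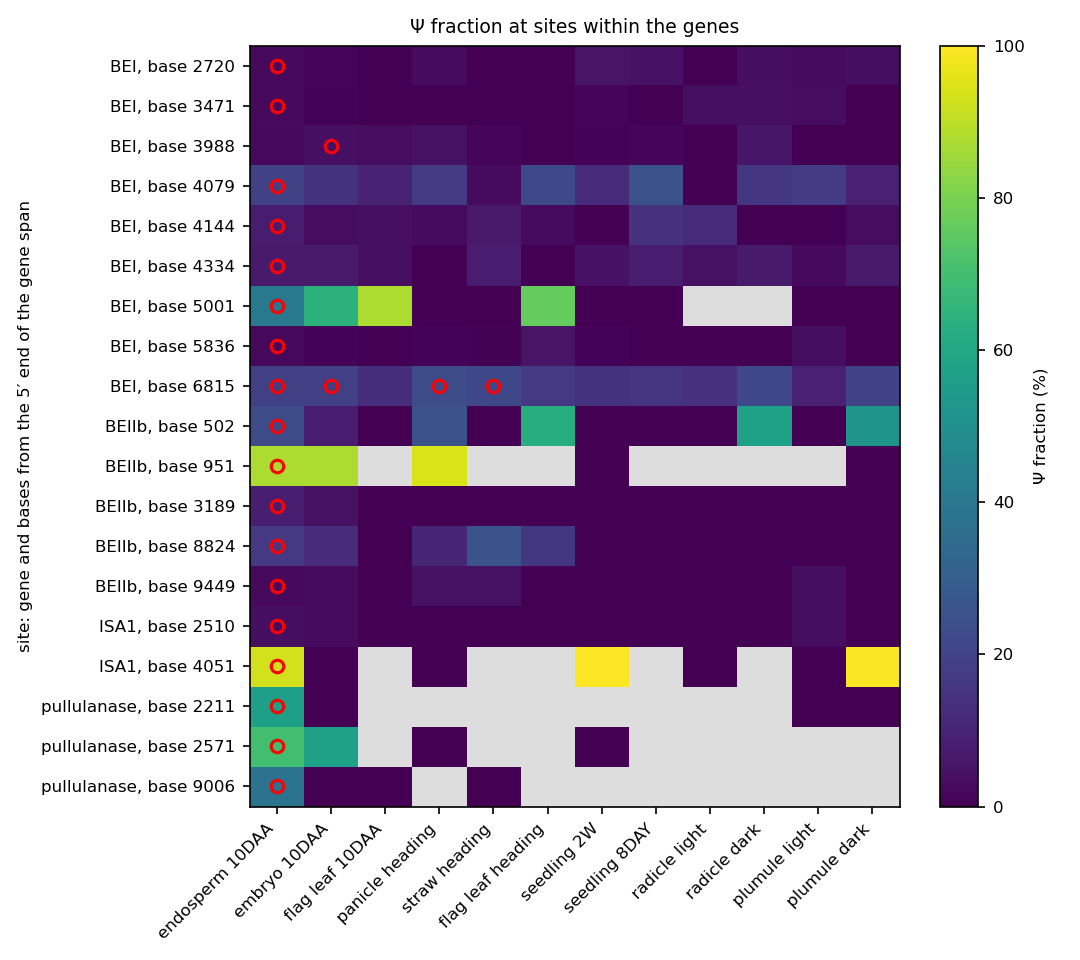
Ψ fraction (%, colour) at the 19 sites that passed in at least 1 tissue (rows, named by gene and bases from the 5′ end of its span) in 12 tissues; grey cells hold no value, and red rings mark a pass of the authors' filter. The rings fall in the endosperm column, except at the BEI site that passed in embryo alone and the BEI site that passed in embryo, panicle and straw as well, and the pullulanase rows are mostly empty outside the seed.

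The bases around the sites were also read. Of the 18 sites that passed in endosperm, 11 (61.1%) had an A directly after the Ψ base, beside 227 (20.1%) of the 1128 sites over all genes. The letters gataaa, with the Ψ base as the T, were read on the transcript strand only and occurred at 4 of the 18 (22.2%), the first 4 windows printed above, beside 26 (2.30%) of the 1128. Neither feature was planned, and the letters were picked from these same windows. Their larger share among the 18 was thus built in by that choice and is no test. The 1128 also include the 18. Those 4 sites had low fractions in endosperm, with a median of 2.56%, and the letters went with low fractions over all genes too, at a median of 3.02%. The pullulanase sites at 4410568 and 4410928 shared the letters gttcaa and both exceeded 50%. Sites of 1 gene share its transcripts, so these shares are descriptions of 4 genes and not of independent sites. The 1128 sites came from genes of any expression level, whereas the 4 host genes were abundant in endosperm. No share was taken over sites in genes of similar expression, so the part of expression in these differences was not tested.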

How the data were processed

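The authors aligned BID-seq reads to the Ensembl genome IRGSP-1.0 in a published pipeline of theirs, pooled the replicates of each tissue and calibrated the ratio of gapped reads. The deposited Ψ fraction (0 to 1, printed as a percentage) is that value, with a flag for sites that passed the authors' filter based on p-values in 11 of 12 tissues. The deposited TPM values were made by the authors and sum to 1000000 in each of 24 libraries. The aligner, the counting and its strand setting are not given in the sources used here, nor whether a column is an input, though the 24 columns match the 24 inputs in number. The digits of 4 flag column names had been replaced by words, and these were read by the tissue they name.

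The test was limma (3.58.1, R 4.3.3), applied to log2(TPM + 1) of genes that reached 1 TPM in 2 or more libraries, with a variance trend, 12 groups sharing 1 spread, and Benjamini-Hochberg adjustment over all genes tested. The same fit without radicle light replicate 1 stands beside it. Read equivalents are TPM times length divided by the step of 1 read in a library; between 54.1% and 72.6% of those under 50 were whole within 0.02, so that genes with near-identical copies are uncertain. Alternatives were a pseudocount of 0.1, no filter, quantile normalization, voom in limma on read equivalents, the compared libraries alone, merged pairs, a replicate block, each library left out and shares from read equivalents. Merging the endosperm pair and reading the letters around the Ψ sites were added after seeing the data. The fit was tested on simulated data with known changes. No library stood apart from its pair in them, so that test does not cover the effect of radicle light replicate 1. Python 3.11.15 with pandas 2.3.3 and SciPy 1.17.1 gave the rest.

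The genes, lists and tests were chosen with earlier results of these data known. All 7 genes, all their Ψ sites and, by a rule, the genes with the highest correlation to each are named. The 7 gene names come from the list of identifiers. Lists of 35 other starch and marker genes, promoters, proteins and exons were not analysed here, since the reference used annotates another rice assembly, so no tissue was checked against its markers.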

Additional observations from a re-analysis of the deposited data

How the results depend on the processing

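Counts of the 7 genes past the threshold, in either direction, moved mainly with radicle light replicate 1 and with the spread used. No share of all genes stands beside the counts below, so whether the call rate over all genes moved with them is not shown. Leaving out 1 library at a time gave 3 to 7 for endosperm against embryo (3 without any 1 of those 4 libraries), 7 throughout against flag leaf 10DAA, 6 to 7 against panicle, 2 to 6 for flag leaf 10DAA against heading, 2 to 6 for panicle and 1 to 6 for straw against flag leaf, 2 to 7 for seedlings, 0 to 3 for plumule light against dark (0 without either plumule dark library or plumule light replicate 2), 2 to 7 for radicle light against dark, 2 to 7 for radicle against plumule in the dark and 0 to 7 for the interaction. With only the compared libraries the counts were 6 for flag leaf 10DAA against heading, 6 for panicle and 5 for straw against flag leaf, 4 for seedlings, 3 for plumule light against dark, 0 for radicle light against dark and 7 for radicle dark against plumule dark. Voom gave 1 for panicle against flag leaf, 3 for radicle light against dark and 2 for the interaction; quantile normalization gave 2 for straw against flag leaf and 2 for the interaction; a pseudocount of 0.1 gave 1 for the interaction. With plumule pairs merged, plumule light against dark had 0 and radicle light against dark 3. With the endosperm pair merged too, chosen after seeing the data, endosperm against embryo had 2, plumule light against dark 0 and radicle light against dark 2; with radicle light replicate 1 also left out the counts were 6 for flag leaf 10DAA against heading, 6 for panicle and 6 for straw against flag leaf, 6 for seedlings, 3 for plumule light against dark, 7 for radicle dark against plumule dark and 1 for the interaction. In that fit, as without the library alone, radicle light against dark turned to -0.28 (ISA1) and -0.27 (ISA2), and the interaction to 0.053 (BEIIb), 1.20 (ISA1), 0.42 (ISA2) and 0.21 (pullulanase). Without radicle light replicate 2 instead, radicle light against dark gave 5.09 (ISA1) and 3.19 (ISA2) and the interaction -5.85 (BEIIb), -4.18 (ISA1), -3.04 (ISA2) and -7.13 (pullulanase). Plumule light against dark turned to -0.040 (BEI), -0.087 (ISA2) and -0.018 (ISA3) with quantile normalization and to -0.064 (BEI), -0.052 (ISA2) and -0.0049 (ISA3) with voom, all of them uncalled in every fit. Without division by length, endosperm shares were 68.5% for BEI, 31.0% for BEIIb, 38.6% for ISA1 and 55.0% for pullulanase. With the filter flag required, 19 of 21 Ψ sites remained. The causes were not tested.

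Same-numbered libraries did not deviate together (correlations from -0.047 to 0.012), so the replicate number is only a name. With a replicate block, radicle light against dark had 4 of 7 genes past the threshold (pullulanase 3.86, limma adjusted p = 0.0502), and no other call of a gene changed. The alternative that keeps only sites in exons was not run for lack of an annotation of the same build. Depth is unknown for the Ψ fractions. Pairs of libraries, little above counting noise, limit the expression tests.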
